A study of Homo sapiens with 4 samples.

Results

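The galectin genes *LGALS1* and *LGALS3* were followed in OVCA420 cells during TGF-β1 treatment, together with *LGALS3BP*, *LGALS8* and *LGALS9*. These 5 genes of the 33694 in the count matrices were taken by gene symbol, and each symbol matched 1 row. They were chosen by their UMI levels in these same libraries, in which *LGALS1* and *LGALS3* had different time courses, so the levels are a description and were not tested. OVCA420 is a human ovarian cancer line of epithelial character. The cytokine TGF-β1 induces epithelial-to-mesenchymal transition (EMT) in such cells. Cells were untreated (Ctrl) or received 10 ng/mL TGF-β1 for 1 day (1-day), 3 days (3-day) or 7 days (7-day), and 1 droplet scRNA-seq library was made for each, so that all 4 libraries come from a single line. A difference between conditions therefore cannot be told apart from a difference between libraries, and no p-value can be given.

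Galectins are lectins that bind β-galactosides, mostly N-acetyllactosamine units on the glycans of cell surface and matrix glycoproteins. They lack a signal peptide, leave the cell by a route outside the classical secretory pathway, and also act inside the cell. Galectin-1 (*LGALS1*) is a small dimeric galectin, often high in mesenchymal cells and known for effects on T cells and adhesion. Galectin-3 (*LGALS3*) has a collagen-like tail through which it forms oligomers, is common in epithelia, and is one of the ligands described for the T cell receptor LAG3.

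*LGALS1* (ENSG00000100097) lies on chromosome 22 from 37675636 to 37679802 of GRCh38, and *LGALS3* (ENSG00000131981) on chromosome 14 from 55124110 to 55145423. *LGALS3BP* (ENSG00000108679), which encodes a secreted glycoprotein bound by galectin-3 and is not itself a galectin, lies on chromosome 17 from 78971238 to 78979947. *LGALS8* (ENSG00000116977) on chromosome 1, from 236518000 to 236552981, encodes a galectin that detects damaged endosomes. *LGALS9* (ENSG00000168961) on chromosome 17, from 27629798 to 27649560, encodes a ligand of the T cell receptor TIM-3. Promoter sequence was available from RefSeq (GRCh38.p14) for *LGALS3*, *LGALS3BP*, *LGALS8* and *LGALS9*, as 250 bases before and 50 after a transcript start in RefSeq. That start lies downstream of the gene start in GENCODE for each of these genes. The windows of *LGALS3* and *LGALS9* are wholly within the gene as GENCODE draws it, and those of *LGALS3BP* and *LGALS8* partly. The windows of *LGALS3* and *LGALS3BP* are shown because these genes had different time courses, with letters in capitals where a motif matches on either strand. The motifs searched were the SMAD box CAGAC, the AP-1 motif TGANTCA and the GC box GGGCGG, and no match in the printed windows overlaps another.
LGALS3: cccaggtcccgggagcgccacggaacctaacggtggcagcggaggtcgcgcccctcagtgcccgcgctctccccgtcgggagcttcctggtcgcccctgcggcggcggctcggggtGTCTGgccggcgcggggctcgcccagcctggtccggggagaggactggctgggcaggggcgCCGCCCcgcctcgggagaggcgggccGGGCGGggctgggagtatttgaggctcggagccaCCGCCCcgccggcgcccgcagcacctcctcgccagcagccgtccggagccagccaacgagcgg
LGALS3BP: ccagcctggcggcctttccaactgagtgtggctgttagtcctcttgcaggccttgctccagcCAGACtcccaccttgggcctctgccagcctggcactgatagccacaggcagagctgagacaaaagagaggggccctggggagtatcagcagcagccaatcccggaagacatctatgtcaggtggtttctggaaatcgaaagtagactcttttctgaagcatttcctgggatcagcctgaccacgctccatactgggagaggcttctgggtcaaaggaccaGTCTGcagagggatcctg

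The *LGALS3* window (chr14:55129002-55129301, plus strand) holds 78.3% G and C, 39 CpG dinucleotides, 3 GC boxes and 1 SMAD box. The *LGALS3BP* window (chr17:78979874-78980173, minus strand) holds 56.7% G and C, 4 CpG dinucleotides and 2 SMAD boxes, with no GC box. Neither window holds the AP-1 motif. Over 35116 promoter windows of the same length, 45.3% hold the SMAD box, 45.0% the GC box and 7.71% the AP-1 motif, so a match to CAGAC or to the GC box is common.

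Of the 10710 cells listed, 3170 were analysed here, and 3144 were retained (933 Ctrl, 937 1-day, 705 3-day and 569 7-day cells). The retained cells held 25382817 to 32949874 UMIs (unique molecular identifiers) per library, with a median of 30270 to 43553 per cell. *EPCAM*, *KRT8*, *KRT18* and *KRT19* were at 297 CPM or more in every library, whereas the ovarian markers *PAX8* and *WFDC2* were at most at 0.333 CPM and *MUC16* was at 2.97, 0.425, 0.124 and 0.197 CPM in Ctrl, 1-day, 3-day and 7-day. The summed level of 4 leukocyte markers was 1.67, 3.03, 4.76 and 6.19 CPM in Ctrl, 1-day, 3-day and 7-day, most of it *CD68*, with *PTPRC*, which defines leukocytes, at 2 UMIs in Ctrl and 0 in the treated libraries. The 3 endothelial markers summed to 5.37 CPM in Ctrl, all of it *CDH5* (161 UMIs), and to 0.249 to 0.473 CPM in the treated libraries. *CDH5* had 13, 7 and 8 UMIs at 1-day, 3-day and 7-day, and *CLDN5* was at 0 in every library. The 4 fibroblast markers summed to 0.315 to 1.37 CPM. The TGF-β1 response genes *TGFBI* and *PMEPA1* were higher than Ctrl in each treated library, by log2 ratios of 3.85 to 5.04. Between 1 and 7 cell barcodes were shared by any pair of libraries.

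*LGALS1* was higher in each later library. Ctrl, 1-day, 3-day and 7-day cells held 211, 681, 2012 and 4074 of its UMIs, or 7.03 CPM (95% counting interval 6.12 to 8.05), 20.7 CPM (19.1 to 22.3), 62.6 CPM (59.9 to 65.4) and 160.5 CPM (156 to 166). CPM are UMIs of the gene per 1000000 UMIs of all retained cells of a library together, and the exact Poisson intervals cover counting error only. None of the 4 intervals overlaps another. On the log2 scale the steps were 1.55 (1.33 to 1.78) from Ctrl to 1-day, 1.60 (1.47 to 1.73) from 1-day to 3-day and 1.36 (1.28 to 1.44) from 3-day to 7-day. These steps cover unequal numbers of days, and the interval of the last lies below that from 1-day to 3-day. The first step was smaller among cells with no UMI of the cell cycle genes *MKI67* or *TOP2A*, of which Ctrl has 60. There the log2 ratio to Ctrl was 0.56 at 1-day, 2.15 at 3-day and 4.0 at 7-day. The Ctrl level in these cells was uncertain, at 11.4 CPM (6.77 to 18.1) against 6.79 CPM (5.87 to 7.82) in the other Ctrl cells.

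*LGALS3* had another order, with 1-day above Ctrl, 3-day next to Ctrl and 7-day lowest. The UMIs were 7057, 23558, 7098 and 2208, or 235, 715, 221 and 87.0 CPM in Ctrl, 1-day, 3-day and 7-day. The step from 1-day to 3-day was a log2 ratio of -1.69, and that from 3-day to 7-day was -1.34. Against Ctrl, 3-day differed by only -0.09 (-0.14 to -0.04), and by -0.12 to -0.07 under the alternatives tried. The level at 7-day was therefore not only a return to Ctrl but lay below it, at a log2 ratio of -1.44 (-1.50 to -1.37).

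The balance of the pair was read as the ratio of their UMIs within a library, which needs no scaling to the library total. How well each transcript is captured was not measured, so the ratio is compared between libraries and is not a ratio of molecules. Ctrl held 33.4 *LGALS3* UMIs per *LGALS1* UMI and 1-day 34.6, with log2 ratios of *LGALS1* to *LGALS3* of -5.06 (-5.27 to -4.87) and -5.11 (-5.22 to -5.0) whose intervals overlap. Over all retained cells, both genes were thus higher at 1-day than in Ctrl by nearly the same factor. At 3-day there were 3.53 *LGALS3* UMIs per *LGALS1* UMI, and at 7-day 0.542, which is 1.85 *LGALS1* UMIs per *LGALS3* UMI. The log2 ratio was -1.82 (-1.89 to -1.75) at 3-day and 0.88 (0.81 to 0.96) at 7-day, where *LGALS1* exceeded *LGALS3* in summed UMIs for the only time in the series. Both later values lay above those of Ctrl and 1-day under every alternative tried. Among cells with no *MKI67* or *TOP2A* UMI, however, Ctrl (-4.53) and 1-day (-5.51) were further apart, with the Ctrl value resting on 60 cells.

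*LGALS3BP*, the glycoprotein ligand of galectin-3, was at 24.0, 25.5, 42.6 and 58.8 CPM in Ctrl, 1-day, 3-day and 7-day (721, 840, 1368 and 1492 UMIs). The 1-day level was within counting error of Ctrl, with a log2 ratio of 0.08 (-0.06 to 0.23), and was lower than Ctrl among cells with no *MKI67* or *TOP2A* UMI (-0.38). The later levels were higher, with 0.82 (0.69 to 0.96) at 3-day and 1.29 (1.16 to 1.42) at 7-day. *LGALS3BP* was thus highest in the library in which *LGALS3* was lowest.

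*LGALS8* stayed within 2-fold of Ctrl. Its levels were 17.6, 11.3, 12.4 and 15.995 CPM (528, 371, 400 and 406 UMIs), with log2 ratios of -0.64 (-0.84 to -0.45), -0.50 (-0.69 to -0.31) and -0.14 (-0.33 to 0.05). The 1-day and 3-day levels were below Ctrl by more than counting error, and the 7-day level was not, nor did it keep its direction among cells with no *MKI67* or *TOP2A* UMI (0.15). *LGALS9* had 16, 3, 11 and 11 UMIs, or 0.533, 0.0910, 0.342 and 0.433 CPM, close to the level of 3 UMIs in a library (0.0910 to 0.118 CPM). The interval of its log2 ratio to Ctrl excluded 0 at 1-day (-2.55, -4.97 to -0.75), on 3 UMIs, and held 0 at 3-day and 7-day.

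**Figure D1:**
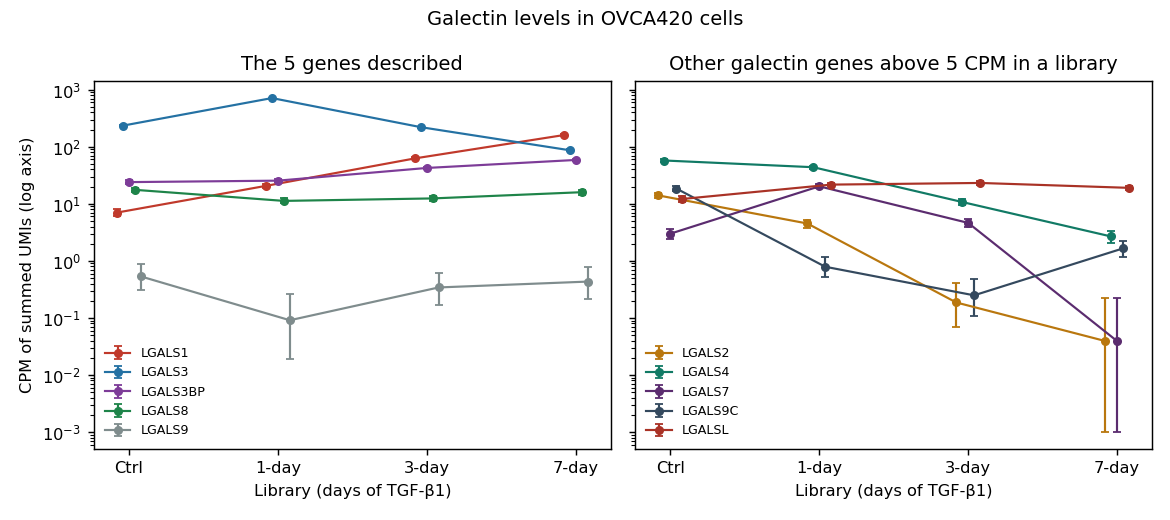
Levels of galectin genes in the Ctrl, 1-day, 3-day and 7-day libraries, in CPM of summed UMIs on a log axis. Points are 1 library each and bars are exact Poisson 95% counting intervals. The left panel has the 5 genes described and the right panel the other galectin genes above 5 CPM in a library, with *LGALS1* between 7.03 CPM in Ctrl and 160.5 CPM at 7-day, where it lies above *LGALS3*.

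To place these ratios, genes that reached 5 CPM in at least 1 of the libraries compared were counted as higher or lower when at least 2-fold apart. Of 10013 genes at 1-day, 905 were higher (9.04%) and 998 lower (9.97%). Of 10088 genes at 3-day, 1017 were higher (10.1%) and 703 lower (6.97%), and of 10260 at 7-day, 1238 were higher (12.1%) and 638 lower (6.22%). *LGALS1*, *LGALS3*, *LGALS3BP* and *LGALS8* reached 5 CPM, and *LGALS9* did not. *LGALS1* and *LGALS3* were higher at 1-day, *LGALS1* alone at 3-day, and *LGALS1* and *LGALS3BP* at 7-day, where *LGALS3* was lower. Nothing is read from these counts, since the same contrasts led to the choice of the genes.

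Other galectin genes, among them *LGALS4* and *LGALS2*, were lower after treatment. Of the 17 genes in a list of human galectin genes with *LGALS3BP*, 13 had a UMI, and *LGALS12*, *LGALS13*, *LGALS14* and *LGALS16* had none. At 7-day, 8 of the 17 had at least 5 CPM in either library, of which 2 were higher (*LGALS1* and *LGALS3BP*) and 4 lower (*LGALS2*, *LGALS3*, *LGALS4* and *LGALS9C*). Over all genes tested these shares were 12.1% and 6.22%, and the median log2 ratio was 0.10 against -0.79 for the list, which holds genes chosen for their levels. *LGALS2*, *LGALS4* and *LGALS9C* passed 5 CPM only through Ctrl, so they could not be counted as higher. *LGALS4*, a galectin of gut-type epithelium, was at 57.5, 43.9, 10.8 and 2.68 CPM in Ctrl, 1-day, 3-day and 7-day, and its last log2 ratio to Ctrl was -4.42 (-4.80 to -4.07). *LGALS2*, a galectin close to *LGALS1* in structure, was at 14.0 and 4.52 CPM in Ctrl and 1-day and had 6 UMIs at 3-day and 1 at 7-day, against 421 in Ctrl. These genes had their highest level in Ctrl, in contrast to *LGALS1*.

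*LGALS7*, a galectin of stratified epithelia, had a course of the same kind as *LGALS3*. It was at 3.00 CPM in Ctrl, 20.3 at 1-day and 4.64 at 3-day, and had 1 UMI at 7-day (log2 ratio -6.25, -11.57 to -3.74). Its near-identical copy *LGALS7B* had 4, 34, 7 and 1 UMIs, and how reads were split between the copies is uncertain. *LGALSL*, a galectin-related protein without sugar binding, was at 12.2, 21.7, 23.2 and 19.1 CPM and within 2-fold of Ctrl throughout. *CLC* had 1 UMI, at 1-day.

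*LGALS9* shares near-identical sequence with *LGALS9B* and *LGALS9C*, so its own counts are uncertain. *LGALS9C* had 556 UMIs in Ctrl and 26, 8 and 42 at 1-day, 3-day and 7-day, and *LGALS9B* had 17, 2, 0 and 1. The sum of the 3 genes was 19.6 CPM in Ctrl and 0.941, 0.591 and 2.13 CPM in the treated libraries. Its log2 ratio to Ctrl was -4.38 (-4.95 to -3.86) at 1-day, -5.05 (-5.80 to -4.40) at 3-day and -3.21 (-3.64 to -2.80) at 7-day. Most of the UMIs of this family in Ctrl were counted to *LGALS9C*, whereas *LGALS9* alone varied by a few UMIs.

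In single cells, *LGALS1* went from a gene seen in few cells to one seen in most. With each cell thinned to 18000 UMIs, which left 844, 900, 677 and 549 cells and removed 89, 37, 28 and 20 shallower ones, 9.60% of Ctrl cells had an *LGALS1* UMI (exact binomial 95% interval 7.69 to 11.8). The share was 23.4% (20.7 to 26.4) at 1-day, 47.6% (43.7 to 51.4) at 3-day and 75.05% (71.2 to 78.6) at 7-day, and without thinning 15.4%, 35.5%, 64.96% and 89.1%. *LGALS3* had a UMI in 95.5%, 99.9%, 92.9% and 72.5% of thinned cells, so that it was still found in most 7-day cells. Every library holds a single cell line, and no cell type known to lack these genes was there to measure the share that free RNA gives.

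The number of UMIs per cell told the same order. The median *LGALS1* count in unthinned cells was 0, 0, 1 and 4 in Ctrl, 1-day, 3-day and 7-day, with highest counts of 7, 22, 43 and 69. For *LGALS3* the medians were 6, 23, 8 and 3 and the highest counts 63, 144, 78 and 28, and every 1-day cell held at least 1 UMI. *LGALS1* was the more uneven of the pair among cells. The tenth of thinned cells with the most *LGALS1* held 60.6% of its UMIs at 1-day, 51.4% at 3-day and 40.5% at 7-day, against 20.7%, 28.9% and 32.3% for *LGALS3*. The variance beyond counting noise, divided by the squared mean, was 1.98, 2.21 and 1.38 for *LGALS1* in these libraries and 0.189, 0.470 and 0.376 for *LGALS3*. In Ctrl, with 0.116 *LGALS1* UMIs per thinned cell, this measure (2.53) rests on few UMIs.

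**Figure D2:**
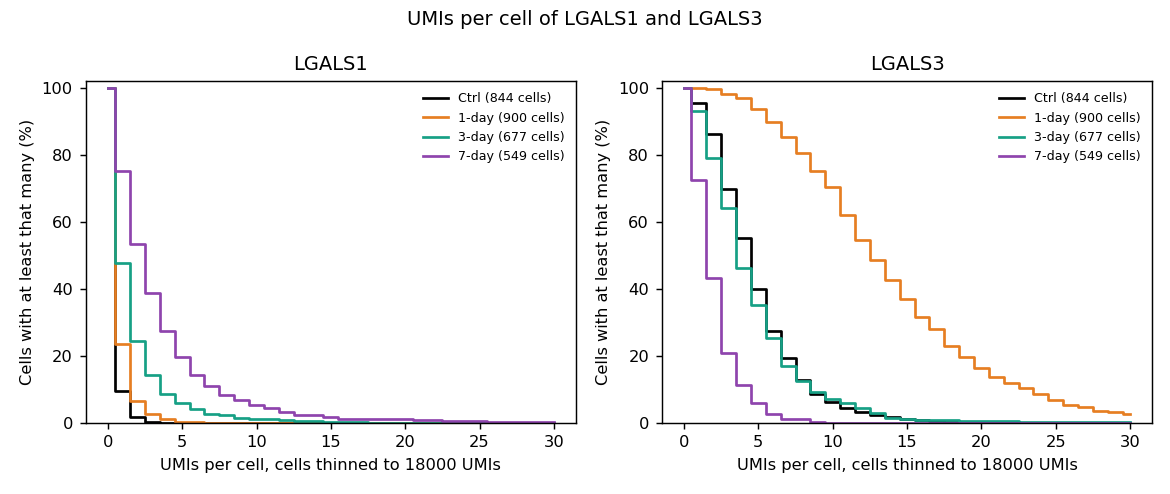
Percent of cells (vertical axis) with at least the number of UMIs on the horizontal axis, for *LGALS1* (left) and *LGALS3* (right) in cells thinned to 18000 UMIs, 1 line per library. For *LGALS1* the lines lie in order of time with 75.05% of 7-day cells at 1 UMI or more, and for *LGALS3* the 1-day line lies above, the 7-day line below, and the Ctrl and 3-day lines close together.

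The other genes were sparser. *LGALS3BP* had a UMI in 32.8%, 32.9%, 51.8% and 56.1% of thinned cells in Ctrl, 1-day, 3-day and 7-day, and *LGALS8* in 25.2%, 17.6%, 19.5% and 22.4%. *LGALS9* was rarest, with a UMI in 10 of 844, 1 of 900, 3 of 677 and 6 of 549 cells (1.18%, 0.111%, 0.443% and 1.09%).

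Within a library, the counts of the pair were at most weakly related over all retained cells. The Spearman rho of the thinned counts across cells was 0.08 in Ctrl (844 cells), -0.05 at 1-day (900), -0.06 at 3-day (677) and 0.04 at 7-day (549). These cells share a library, and counts this sparse pull rho towards 0. For comparison, rho of *LGALS1* was taken with 5708 genes detected in at least 20% of cells of every library. Between the 5th and 95th percentiles it ran from -0.06 to 0.07 in Ctrl and from -0.11 to 0.13 at 7-day. The main Ctrl value of the pair lay just above this range. The pair was within it with another draw of the thinning (0.05), at 10000 UMIs per cell (0.03) and unthinned (0.04). It was above it without doublets (0.077) and with a mitochondrial limit of 10% (0.086). The earlier and the later part of the cells in barcode order were also above it (0.082 and 0.073). Unthinned Ctrl values gave a Pearson r of 0.096. Among Ctrl cells with no *MKI67* or *TOP2A* UMI, rho of the pair was -0.057. At 1-day another draw of the thinning gave -0.10, and unthinned values gave a rho of -0.10 and a Pearson r of -0.13. The range there was -0.06 to 0.08 for the thinned rho of all genes. Weaker values came with a mitochondrial limit of 10% (-0.03) and in the earlier part of the cells in barcode order (-0.02). Cells with a UMI of both genes made up 9.36%, 23.3%, 44.6% and 54.1% of the cells, against 9.17%, 23.4%, 44.2% and 54.4% from the product of the single shares. At 1-day this comparison cannot show a relation, since *LGALS3* had a UMI in 899 of 900 cells. The share with both was there nearly fixed by that of *LGALS1*. In Ctrl and at 3-day it was limited too, with *LGALS3* found in 95.5% and 92.9% of cells. The opposite courses of the pair from 1-day to 7-day were a difference between libraries, while within a library the weak values differed in sign.

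*LGALS1* counts exceeded *LGALS3* counts in 3 of 844 thinned Ctrl cells (0.355%), 2 of 900 1-day cells (0.222%), 77 of 677 3-day cells (11.4%, 9.08 to 14.0) and 268 of 549 7-day cells (48.8%, 44.6 to 53.1). At 7-day, 115 cells had *LGALS1* UMIs only, 101 *LGALS3* UMIs only, 297 both and 36 neither. Cells with UMIs of only 1 of the pair were thus about as frequent for either gene, although the summed UMIs were higher for *LGALS1*.

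**Figure D3:**
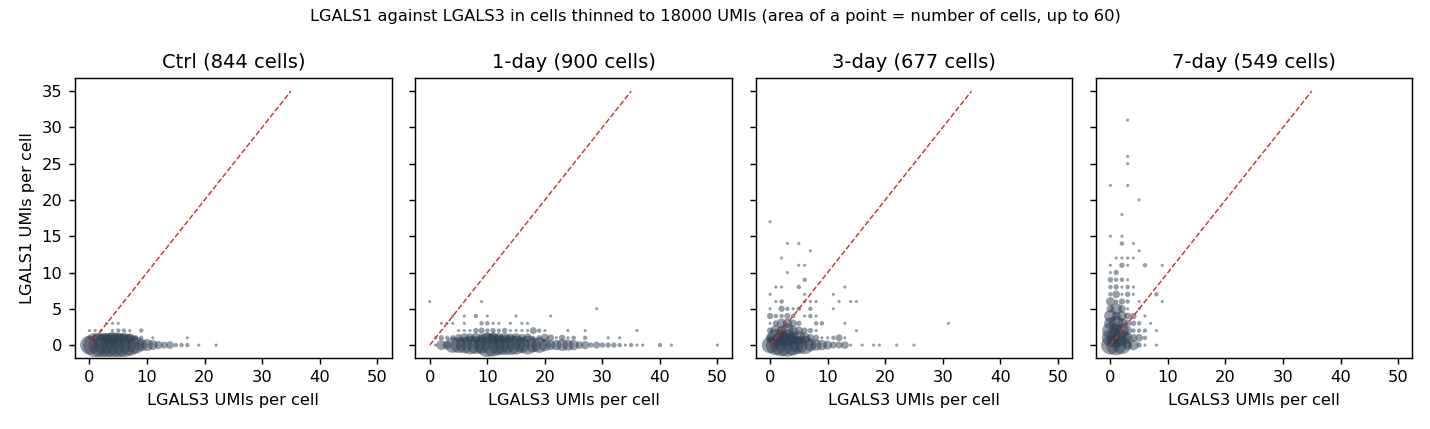
*LGALS1* UMIs (vertical axis) against *LGALS3* UMIs (horizontal axis) per cell thinned to 18000 UMIs, 1 panel per library, with the area of a point showing the number of cells (up to 60) and the dashed line showing equal counts. Cells lie along the *LGALS3* axis in Ctrl and 1-day and on both sides of the line at 7-day, where 268 of 549 cells lie above it.

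Cells of each library were also ordered by *LGALS3* count, with ties in barcode order, and divided into 4 bins of equal size. In 3-day cells, *LGALS1* was at 65.7, 63.8, 61.8 and 65.4 CPM from the lowest to the highest bin, while the share of cells with an *LGALS1* UMI was 52.9%, 49.1%, 48.5% and 39.6%. In 1-day cells *LGALS1* was at 21.7, 20.7, 16.8 and 16.5 CPM, all with overlapping counting intervals. In Ctrl the lowest bin had 3.42 CPM (13 UMIs) and the others 6.32 to 8.43 CPM, also with overlapping counting intervals. In 7-day cells the highest bin had 215 CPM (197 to 234), above the 143, 140 and 135 CPM of the others. Without the 5 cells of most *LGALS1* in each bin, a setting chosen after seeing the data, these were 171 CPM against 120, 124 and 110 CPM. The share of 7-day cells with an *LGALS1* UMI differed less, at 78.1% in the highest bin and 73.0% to 75.4% in the others. Among the 69 thinned 7-day cells with no *MKI67* or *TOP2A* UMI, rho of the pair was 0.29.

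Cells with a UMI of *MKI67* or *TOP2A*, taken as cycling, numbered 873, 464, 542 and 493 of the retained cells of Ctrl, 1-day, 3-day and 7-day. In them *LGALS1* was at 24.2 CPM against 16.9 CPM in the other cells at 1-day and at 65.5 against 50.7 CPM at 3-day. At 7-day it was at 158 against 183 CPM and in Ctrl at 6.79 against 11.4 CPM. The counting intervals of *LGALS1* in Ctrl overlapped (5.87 to 7.82 against 6.77 to 18.1 CPM). *LGALS3* was lower in cycling cells, with 663 against 771 CPM at 1-day and 213 against 251 CPM at 3-day. The counting intervals of *LGALS3* overlapped in Ctrl (234 against 264 CPM) and at 7-day (86.2 against 93.2 CPM). In both classes *LGALS1* was highest at 7-day and *LGALS3* was highest at 1-day and lowest at 7-day. These counts were not thinned, and the part of depth per cell was not tested.

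Of 10 epithelial genes in a list, 9 had a UMI in 20% or more of thinned cells in every library. Of these, 6, 6, 6 and 7 had a positive rho with *LGALS3* in Ctrl, 1-day, 3-day and 7-day. Over all 5707 genes compared, 52.9%, 49.97%, 47.5% and 47.1% were positive. The highest values were those of keratins, singled out after they were seen. The rho with *KRT18* was 0.26, 0.22, 0.25 and 0.25 in Ctrl, 1-day, 3-day and 7-day cells. That with *KRT19* was 0.30, 0.23, 0.23 and 0.19, with *KRT8* 0.17, 0.23, 0.24 and 0.21, and with *KRT7* 0.25, 0.21, 0.29 and 0.16. These keratins form the filaments of simple epithelia. All 16 values lie above the 95th percentile of rho of *LGALS3* with 5707 genes, which was 0.09 to 0.12. Those genes needed a UMI in only 20% of cells, whereas the keratins had one in 98.1% or more. Sparse counts pull rho down in size, and the keratins were not compared with genes of like abundance. Among the 48 thinned Ctrl cells with no *MKI67* or *TOP2A* UMI, however, rho was 0.06 with *KRT7* and 0.11 with *KRT19*. The adhesion molecule *EPCAM* passed that percentile in Ctrl (0.13) and 1-day (0.17) but not at 3-day (0.077) or 7-day (-0.012), and *CDH1* lay between -0.03 and 0.04. The splicing factor *ESRP1* was negative in the 3 treated libraries, with -0.14 at 1-day. The tight junction gene *CLDN4* and the transcription factor *ELF3* were negative in all libraries but 7-day, with -0.085 and -0.071 at 1-day.

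For *LGALS1*, rho with the 4 keratins lay between -0.13 and 0.10. In Ctrl the highest was *KRT7* (0.10), above the 95th percentile of all genes (0.07). In the treated libraries all values of the 4 keratins were negative, down to -0.13. Below the 5th percentile lay *KRT8*, *KRT18* and *KRT19* at 1-day (percentile -0.061), *KRT7*, *KRT8* and *KRT18* at 3-day (-0.067) and *KRT7* at 7-day (-0.11). *KRT19* passed it only narrowly (-0.0613 against -0.0610). Here too, the keratins were not compared with genes of like abundance. Of 9 epithelial genes, 5, 0, 4 and 2 were positive from Ctrl to 7-day, against 54.5%, 57.4%, 58.1% and 52.2% of all genes. Among the positive ones, *EPCAM* at 7-day (0.141) and *CLDN4* at 3-day (0.113) lay above the 95th percentile of all genes (0.127 and 0.092). Of 9 mesenchymal genes in a list, only 1, 3, 3 and 4 were detected in at least 20% of Ctrl, 1-day, 3-day and 7-day cells, and the filament gene *VIM* had 0, 8, 5 and 6 UMIs. At 7-day, rho of *LGALS1* was negative with all 4 genes detected there, from -0.16 (*FN1*) to -0.0043 (*SNAI2*), and only *FN1* lay below the 5th percentile of all genes (-0.11), of which 52.2% were positive. At 1-day 2 of 3 were positive (*TGFBI* 0.076 and *SNAI2* 0.058), and at 3-day 1 of 3 (*SNAI2* 0.022). The shares of all genes were 57.4% and 58.1%. Between the 7-day and Ctrl libraries the direction was the other one. Of the 9 listed mesenchymal genes, 4 reached 5 CPM in either library. These 4 and *LGALS1* were at least 2-fold higher at 7-day than in Ctrl. The median log2 ratio of the 4 was 3.87. Of all genes, 12.1% were higher, with a median of 0.10. *SNAI2* and *ITGA5* were below 5 CPM in Ctrl, so they could not be counted as lower. Of the 9 epithelial genes that reached 5 CPM, 1 was higher (*KRT7*) and 2 were lower (*KRT19* and *ELF3*), with a median of 0.11. The share of all genes that were lower was 6.22%. From 3-day to 7-day, *ITGA5* was higher (12.8 and 34.7 CPM), as *LGALS1* was. *TGFBI* (471 and 301 CPM), *SNAI2* (57.5 and 39.1 CPM) and *FN1* (256 and 232 CPM) were lower.

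**Figure D4:**
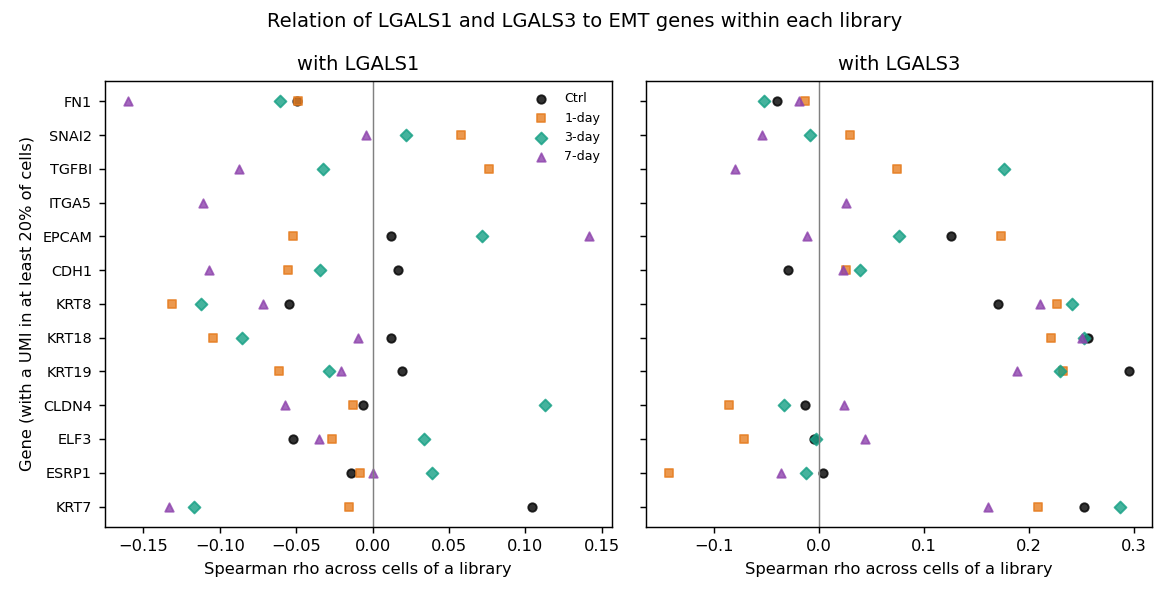
Spearman rho across the cells of a library between *LGALS1* (left) or *LGALS3* (right) and EMT genes with a UMI in at least 20% of its cells, thinned to 18000 UMIs. Each symbol is 1 library. *LGALS3* has positive values with *KRT7*, *KRT8*, *KRT18* and *KRT19* in every library, from 0.16 to 0.30, and *LGALS1* does not.

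Genes with the time course nearest to that of *LGALS1* were sought among 3346 genes with at least 50 CPM in a library, by the Euclidean distance over the 3 log2 ratios to Ctrl (CPM plus 1). The 5 nearest were *ANTXR2* (distance 0.325), *SLC16A3* (0.486), *RTTN* (0.596), *PLAUR* (0.729) and *HMGA2* (0.747). *ANTXR2*, an anthrax toxin receptor that binds matrix proteins, was at 2.07, 5.71, 24.2 and 65.2 CPM. *PLAUR*, the urokinase receptor, was at 8.27, 15.8, 80.2 and 138 CPM, and *SLC16A3*, a lactate exporter, at 1.40, 5.68, 24.0 and 57.7 CPM. *HMGA2*, a chromatin protein, was at 8.13, 29.7, 69.1 and 114 CPM. These genes, like *LGALS1*, were higher in each later library, which follows from how they were chosen.

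The 5 nearest to *LGALS3* were *CXXC5* (0.606), *FLRT3* (0.733), *ZFP36* (0.736), *MATN2* (0.738) and *HNF4A* (0.758). *CXXC5*, a zinc finger protein, was at 92.8, 300 and 119 CPM in Ctrl, 1-day and 3-day and at 45.0 CPM at 7-day. *ZFP36*, which promotes mRNA decay, was at 36.9, 73.1, 38.5 and 16.9 CPM. *HNF4A*, a transcription factor of gut and liver epithelium, was at 34.6, 83.3, 32.5 and 20.1 CPM. All 5 were highest at 1-day and lowest at 7-day, which again follows from the choice. The distances rest on 4 libraries, and under other limits 2 or 3 of the 5 stayed among the nearest.

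Within libraries, the genes that went most with *LGALS3* were *HSPB1* (mean rho over libraries 0.31, range 0.19 to 0.41), *CFL1* (0.25), *CTSH* (0.25), *COX6A1* (0.25) and *KRT18* (0.24). *HSPB1*, a small heat shock protein, was at 834, 7132, 2421 and 756 CPM, and *CTSH*, a lysosomal protease, at 230, 838, 611 and 275 CPM, so both were also highest at 1-day. At the other end were *RPLP1* (-0.22), *MT-CO2* (-0.21), *RPS12* (-0.20), *HMGA1* (-0.19) and *CBX3* (-0.17). For *LGALS1* the values were smaller, with *PTMS* (0.15), *CFL1* (0.14), *PHF19* (0.14), *PTTG1* (0.14) and *TROAP* (0.14) highest and *FTH1* (-0.13), *RPS18* (-0.12), *FTL* (-0.12), *AKR1C3* (-0.11) and *TRAM1* (-0.11) lowest. The mean of *TRAM1* covers 0.077 in Ctrl and -0.27 at 7-day, and *PTMS* ran from 0.066 in Ctrl to 0.25 at 7-day. *PHF19*, *PTTG1* and *TROAP* were at 0.022, 0.027 and 0.028 in Ctrl and at 0.21, 0.27 and 0.19 at 7-day. Their Ctrl values lay between the 5th and 95th percentiles of all genes there (-0.06 and 0.07). *CFL1*, which severs actin filaments, was in both groups of 5. *PTTG1* and *TROAP* are genes of mitosis.

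Galectins bind glycans made by the cell itself, and 22 enzymes that build or cap these were taken as a list. The list was chosen with earlier results of these data known, so its counts are a description. At 7-day, 16 reached 5 CPM in either library, of which 4 were at least 2-fold higher than Ctrl and 0 lower, against 12.1% and 6.22% of all genes, with a median log2 ratio of 0.79 against 0.10. At 1-day and at 3-day, 2 of 15 were higher and 0 lower, against 9.04% and 9.97% of all genes at 1-day and 10.1% and 6.97% at 3-day. *B4GALT1*, which adds the galactose that galectins bind, was at 49.0, 122, 114 and 131 CPM and thus already higher at 1-day, with a log2 ratio of 1.32 (1.23 to 1.40). *FUT8*, which adds core fucose, was at 12.6, 21.2, 36.6 and 39.2 CPM. The sialyltransferases *ST3GAL6* and *ST3GAL4*, which cap galactose, were at 0.733, 0.637, 3.39 and 13.3 CPM and at 13.7, 13.6, 23.8 and 29.3 CPM. *ST3GAL6*, 1 of the 4 higher enzymes, reached 5 CPM only at 7-day, so it could not have been counted as lower there. *B4GALT3* stayed within 2-fold, with 27.9, 26.9, 44.2 and 53.7 CPM.

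A second list had 29 proteins known to bind galectin-1 or galectin-3. It too was chosen with earlier results of these data known, so its counts are a description. At 7-day, *ITGA5* (1.33 CPM in Ctrl) and *ITGA1* (2.63 CPM in Ctrl) passed 5 CPM only through 7-day and could not be counted as lower. *CEACAM5* passed only through Ctrl and could not be counted as higher. At 7-day 9 of the 24 that reached 5 CPM were higher and 1 lower, against 12.1% and 6.22% of all genes, with a median log2 ratio of 0.65 against 0.10. At 3-day 7 of 23 were higher and 2 lower, against 10.1% and 6.97%, with a median of 0.55 against 0.02. There *ITGA5* passed only through 3-day, and the 2 lower genes (*NRP1* and *CEACAM5*) passed only through Ctrl. At 1-day 4 of 22 were higher and 3 lower, against 9.04% and 9.97%, with a median of -0.03 against -0.07. The 3 lower genes at 1-day (*NRP1*, *CEACAM5* and *GEMIN4*) passed only through Ctrl and could not be counted as higher. *ITGA5*, the fibronectin receptor subunit, was at 1.33, 4.22, 12.8 and 34.7 CPM, and *CD44*, the hyaluronan receptor, at 47.7, 41.9, 137 and 218 CPM. The matrix protein *FN1* was at 48.1, 81.1, 256 and 232 CPM, and the growth factor receptor *EGFR* was at 33.0, 228, 235 and 196 CPM. The gene counted as lower at 7-day was *CEACAM5*, an epithelial adhesion glycoprotein, with 230, 56, 9 and 6 UMIs. *ITGA5* was higher in each later library, as *LGALS1* was, whereas *EGFR* differed little among the treated libraries.

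**Figure D5:**
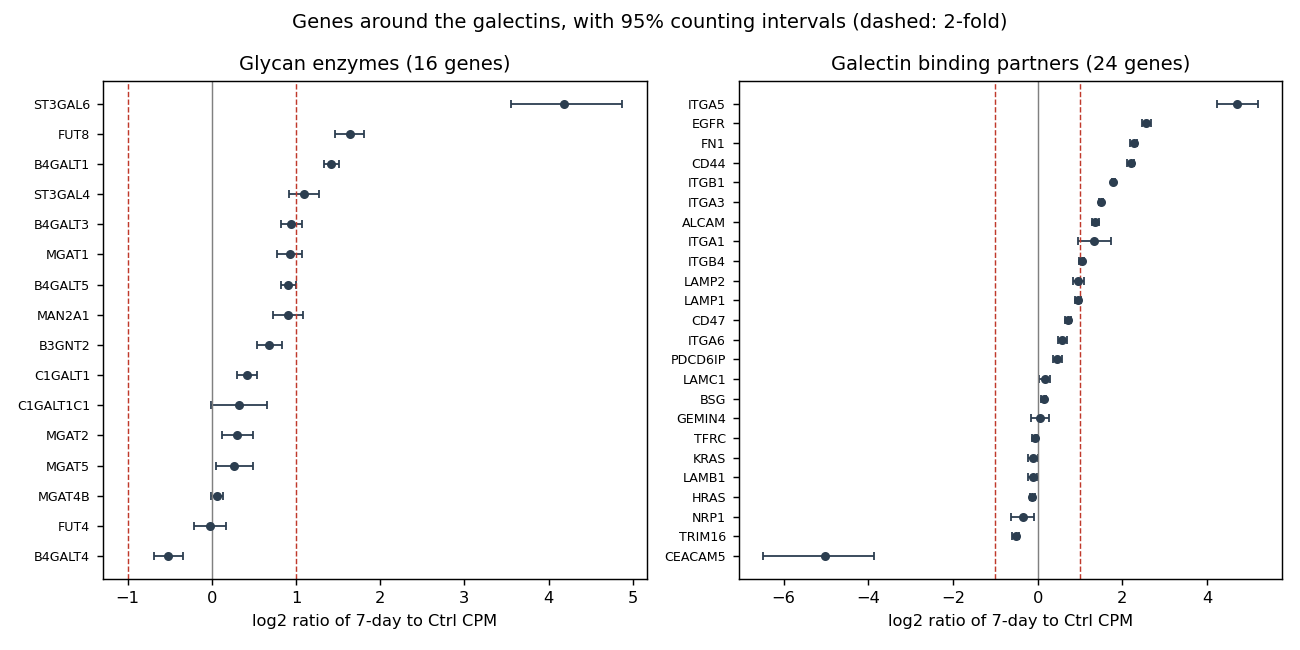
Log2 ratio of 7-day to Ctrl CPM (horizontal axis) for 16 glycan enzymes (left) and 24 galectin binding partners (right) with at least 5 CPM in either library. Points are the ratios, bars are exact 95% counting intervals and dashed lines mark 2-fold, past which lie 4 enzymes and 9 partners on the higher side and *CEACAM5* on the lower side.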

How the data were processed

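Droplet scRNA-seq counts of UMIs per gene and cell were analysed for the 4 OVCA420 libraries (Ctrl, 1-day, 3-day and 7-day of 10 ng/mL TGF-β1). The authors aligned reads to GRCh38 with Cell Ranger 2.0.1 and deposited these counts without normalization. Cells were analysed in barcode order, 3170 of 10710, and the others were not analysed here. Cells with more than 200 genes and at most 20% mitochondrial UMIs were retained. Scrublet, run in scanpy 1.11.5, marked 40 cells (1.27%) as doublets, which were retained. Sums over part of the cells are not the depth of a library.

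CPM have exact Poisson, log2 ratios exact conditional and shares exact binomial 95% intervals. UMIs are molecules, and these intervals hold only for the error of counting. No test was made, since a group has 1 library. Per-cell values were thinned to 18000 UMIs. Steps were tested on simulated data. Analyses ran in Python 3.11.15. The genes and lists were chosen with earlier results of these data known. Named genes were the 5 members, other galectin genes with a UMI, up to 5 genes per list with the largest 7-day ratio, the 5 nearest in time course, the 5 highest and lowest in mean rho, and the EMT and TGF-β1 genes, of which 1 is not reported here. Alternatives were other cell filters, doublets left out, thinning, size factors, means over cells, cells without cycling UMIs and parts of the cells.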

Additional observations from a re-analysis of the deposited data

Results flagged for a closer look

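*LGALS3* lay on opposite sides of Ctrl in 2 treated libraries, above it at 1-day (log2 ratio 1.60) and below it at 7-day (-1.44), both beyond counting error. *LGALS7* did the same, with 2.76 (2.44 to 3.09) at 1-day and -6.25 at 7-day, the latter on 1 UMI and with a counting interval of -11.57 to -3.74. The difference between the time points was not tested for either gene, since each has 1 library.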

How the results depend on the processing

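No paired analysis was possible because the 4 conditions have a single library each. Of 330 values under alternatives, 238 stayed within the main value's interval (for rho within 0.1, for counts within 1.5 times), 92 moved beyond it and 0 of the values beyond counting error changed sign. The cause of the shifts was not tested. Leaving out doublets, another mitochondrial limit, no filter on cells and means over cells moved none of these beyond it. The unthinned and noncycling keratin values, and the bins by *LGALS3* without 5 cells, were chosen after seeing the data. With 1 library per condition, spread between cultures was not measured, and depth per cell limits what can be said of *LGALS9* and of rho.

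In cells with no *MKI67* or *TOP2A* UMI, where Ctrl has 60 cells, the log2 ratios to Ctrl at 1-day, 3-day and 7-day were 0.56, 2.15 and 4.0 for *LGALS1*, and *LGALS1* differed by 1.85 from 3-day to 7-day. *LGALS3* differed by 1.55 from Ctrl to 1-day, -1.62 from 1-day to 3-day and -1.43 from 3-day to 7-day. *LGALS3BP* had -0.38 at 1-day and 0.45 at 3-day, and *LGALS8* -0.22 at 3-day and 0.15 at 7-day. The log2 ratio of *LGALS1* to *LGALS3* UMIs was -4.53, -5.51, -2.31 and 0.97 in Ctrl, 1-day, 3-day and 7-day. The Spearman correlation of the pair was -0.057 in Ctrl (48 thinned cells), 0.073 at 3-day (151) and 0.29 at 7-day (69), and rho of *LGALS3* in Ctrl was 0.060 with *KRT7* and 0.11 with *KRT19*. *LGALS9* gave no value where a count was 0.

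With median-of-ratios size factors, *LGALS3* differed by 1.69 from Ctrl to 1-day, -1.76 from 1-day to 3-day and -1.42 from 3-day to 7-day, and *LGALS1* by 1.28 from 3-day to 7-day. In thinned cells *LGALS1* differed by 1.76 from 1-day to 3-day and the UMI ratio at 1-day was -5.29. In the earlier and the later part of each barcode list, the UMI ratio was -5.26 and -4.98 at 1-day, -2.00 and -1.66 at 3-day and 1.11 and 0.65 at 7-day. There *LGALS3* was at -1.55 and -1.33 from Ctrl to 7-day and at -1.47 and -1.22 from 3-day to 7-day, *LGALS1* was at 1.64 and 1.09 from 3-day to 7-day, and *LGALS8* at 3-day was at -0.69 in the later part. Without thinning, rho of *LGALS3* at 7-day was 0.27 with *KRT7*, 0.33 with *KRT8*, 0.40 with *KRT18* and 0.32 with *KRT19*.

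Shares of cells with a UMI follow the depth. Without thinning they were 15.4%, 35.5%, 64.96% and 89.1% for *LGALS1* in Ctrl, 1-day, 3-day and 7-day, and 97.6%, 100%, 98.3% and 91.6% for *LGALS3*. They were 46.4%, 49.9%, 75.9% and 84.0% for *LGALS3BP*, 39.7%, 29.1%, 41.8% and 45.7% for *LGALS8*, and 1.56% for *LGALS9* at 3-day. At 10000 UMIs per cell they were 5.21%, 17.3%, 34.7% and 60.9% for *LGALS1*, 86.8%, 98.9%, 80.3% and 53.3% for *LGALS3*, 21.8%, 21.0%, 35.7% and 39.8% for *LGALS3BP*, and 15.5%, 8.90%, 13.4% and 13.1% for *LGALS8*. *LGALS9* was then found in 0 of 933 1-day cells (0.0%), where 3 cells would be 0.322% and which limits only cells with a UMI at that depth (3 of 937 unthinned cells had one), and in 0.178% of 7-day cells.

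With a limit of 1 CPM, 1361 genes were at least 2-fold higher at 1-day, and 1545, 1337 and 1218 were lower at 1-day, 3-day and 7-day. With 50 CPM, 353, 368 and 395 genes were higher and 226, 148 and 155 lower. Of the 5 genes nearest in time course, 3 stayed among the nearest for *LGALS1* and 3 for *LGALS3* at a limit of 20 CPM, and 2 and 3 with a pseudocount of 5 CPM.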
